A study of Mus musculus with 51 samples.

Results

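The mast cell and basophil proteases and receptors are 10 genes: Mcpt1, Mcpt2, Mcpt4, Cma1, Tpsb2, Tpsab1, Cpa3, Mcpt8, Fcer1a and Kit. They were picked by symbol, with no threshold on their values, at a time when earlier results of these data were known. Each of the 10 had exactly 1 probe set that carried its symbol alone, so they make up 10 of the 19505 named genes that were measured. Lung RNA of male mice aged 6 to 8 weeks was hybridised to 51 single-colour arrays, of which 49 could be given a group. The skin of all mice, controls included, had been painted on 2 occasions with methylene diphenyl diisocyanate (MDI) at 1%, an isocyanate used to make polyurethane that can sensitize the airways. The exposed mice then received MDI-glutathione (MDI-GSH) products through the nose on days 15, 16, 19 and 20 under anaesthesia with isoflurane, and the control mice received MDI and GSH that had been reacted apart. RNA came from lungs collected 48 h later.

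The 8 groups were BALB/c mice given the control solution (n = 3) or MDI-GSH (n = 3), C57BL/6 mice given the control solution (n = 6) or MDI-GSH (n = 13), C57BL/6 mice that also received crofelemer with the control solution (n = 5) or with MDI-GSH (n = 3), and mice of the strain B6.129S2-Ighmtm1Cgn/J, which are B-cell deficient, given the control solution (n = 9) or MDI-GSH (n = 7). Crofelemer, which inhibits chloride channels, was instilled into the nose 4 h ahead of every exposure, at a dose of 4 mg/kg. The 2 remaining arrays had labels that contradict each other and entered no comparison. The labels do not say whether the arrays of a group came from separate mice, so p-values measure the spread between these arrays. All mice were sensitized through the skin, so no group shows the lung of an unsensitized mouse. In whole lung RNA, fewer cells of a type and less RNA per cell cannot be told apart.

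Mast cells store proteases in their granules and release them when antigen crosslinks IgE on the high affinity receptor, whose alpha chain is encoded by Fcer1a. Their growth depends on stem cell factor acting on the receptor tyrosine kinase Kit. Mcpt1 and Mcpt2 encode chymase-family proteases typical of mucosal mast cells, whereas Mcpt4, Cma1, Tpsb2 and Cpa3 encode a chymase, an elastase-like chymase, a tryptase and a carboxypeptidase typical of connective tissue mast cells. Mcpt8 encodes a protease of basophils. Tpsab1 encodes a second tryptase, which C57BL/6 mice lack as a protein, and RefSeq lists the gene of the C57BL/6J reference as a transcribed pseudogene. In the lung, Fcer1a can also be found in dendritic cells and Kit in capillary endothelial cells.

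Mcpt1, Mcpt2, Mcpt4 and Mcpt8 lie next to each other on chromosome 14, with Mcpt9 among them and Ctsg beside Mcpt8. Cma1 lies on the same chromosome, between Sdr39u1 and Mcpt-ps1. Tpsab1 and Tpsb2 are neighbours on chromosome 17, and Kit lies between Pdgfra and Kdr on chromosome 5. RefSeq promoter windows (build GRCm38.p6, 250 bases before to 50 bases after the start, 300 in all) were available for 7 of the 10 members. Those of Mcpt1, Mcpt4 and Cpa3 are shown because Mcpt1 and Mcpt4, chymase genes of 1 cluster with similar promoters, differed in their values below, and because Cpa3 had the widest range of values. The capitals mark a GATA word, one of AGATAA or AGATAG or TGATAA or TGATAG on either strand. GATA factors, among them Gata2, are known to act in mast cells. The windows lie at chr14:56017714-56018013 on the plus strand for Mcpt1, chr14:56062261-56062560 on the minus strand for Mcpt4 and chr3:20242132-20242431 on the minus strand for Cpa3, and each is written 5′ to 3′ on its gene's strand.
Mcpt1: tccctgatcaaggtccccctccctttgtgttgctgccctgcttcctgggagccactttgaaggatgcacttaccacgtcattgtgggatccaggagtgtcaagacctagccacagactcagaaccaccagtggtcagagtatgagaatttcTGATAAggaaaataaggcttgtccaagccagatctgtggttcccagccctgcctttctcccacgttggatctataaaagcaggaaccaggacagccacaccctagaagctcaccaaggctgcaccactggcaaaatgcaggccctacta
Mcpt4: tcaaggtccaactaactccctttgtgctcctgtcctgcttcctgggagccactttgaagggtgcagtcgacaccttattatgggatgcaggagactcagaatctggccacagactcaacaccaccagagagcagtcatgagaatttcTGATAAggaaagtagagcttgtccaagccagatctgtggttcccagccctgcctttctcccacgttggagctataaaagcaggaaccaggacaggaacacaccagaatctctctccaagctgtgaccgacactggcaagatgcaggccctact
Cpa3: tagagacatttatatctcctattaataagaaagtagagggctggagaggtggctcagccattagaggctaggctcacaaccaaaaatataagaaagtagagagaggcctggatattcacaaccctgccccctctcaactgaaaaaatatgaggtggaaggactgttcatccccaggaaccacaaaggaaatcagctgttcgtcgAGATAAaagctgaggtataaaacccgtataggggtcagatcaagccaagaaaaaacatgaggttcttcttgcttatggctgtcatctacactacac

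The windows of Mcpt1 and Mcpt4 were identical at 254 of 312 aligned positions (81.4%), with a longest shared run of 53 bases, and the next most alike pair of members, Mcpt4 and Mcpt8, reached 54.3%. Both carried the word TGATAA, at bases 152 to 157 of the Mcpt1 window and 148 to 153 of the Mcpt4 window. Cpa3 carried AGATAA at bases 205 to 210. Cma1 and Fcer1a also had 1 GATA word each, and Kit and Mcpt8 had none in this window. A GATA word was present in 29.8% of all 32851 promoter windows, so 5 of 7 members is a description of these letters and no evidence of binding. The STAT5 word TTCNNNGAA (in 8.3% of all windows) was found in no member, and the E-box CATGTG or CACGTG (20.4%) was found in Fcer1a alone of the 7.

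Before the comparisons, the signal itself sets a limit. Kit was among the brightest probe sets on each array, between the 92.9 and 97.9 percentile. Cpa3 was above its array's median on 18 of 49 arrays, and the other 8 members were below it on all 49. The dimmest was Mcpt8, with a median at the 2.9 percentile and a range from 2.80 to 4.17 on the log2 scale. Values that low may lie at the background of the array, which these files do not give, so a difference in a dim member may understate a change in its RNA. All values below are deposited log2 signals. Array means formed 4 levels by set, 7.37 to 7.40 for BALB/c, 7.48 to 7.51 for C57BL/6, 7.43 to 7.48 for C57BL/6 with crofelemer and 8.02 to 8.07 for B-cell deficient mice, so levels in different sets are given side by side and the crofelemer comparisons, which cross 2 sets, are open to a difference in scale. As a check of the B-cell deficient genotype, the B cell gene Cd79a lay between 4.50 and 5.84 in these mice and between 9.23 and 11.79 in C57BL/6 mice without crofelemer. Ighm, the disrupted gene, was not analysed here.

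**Figure D1:**
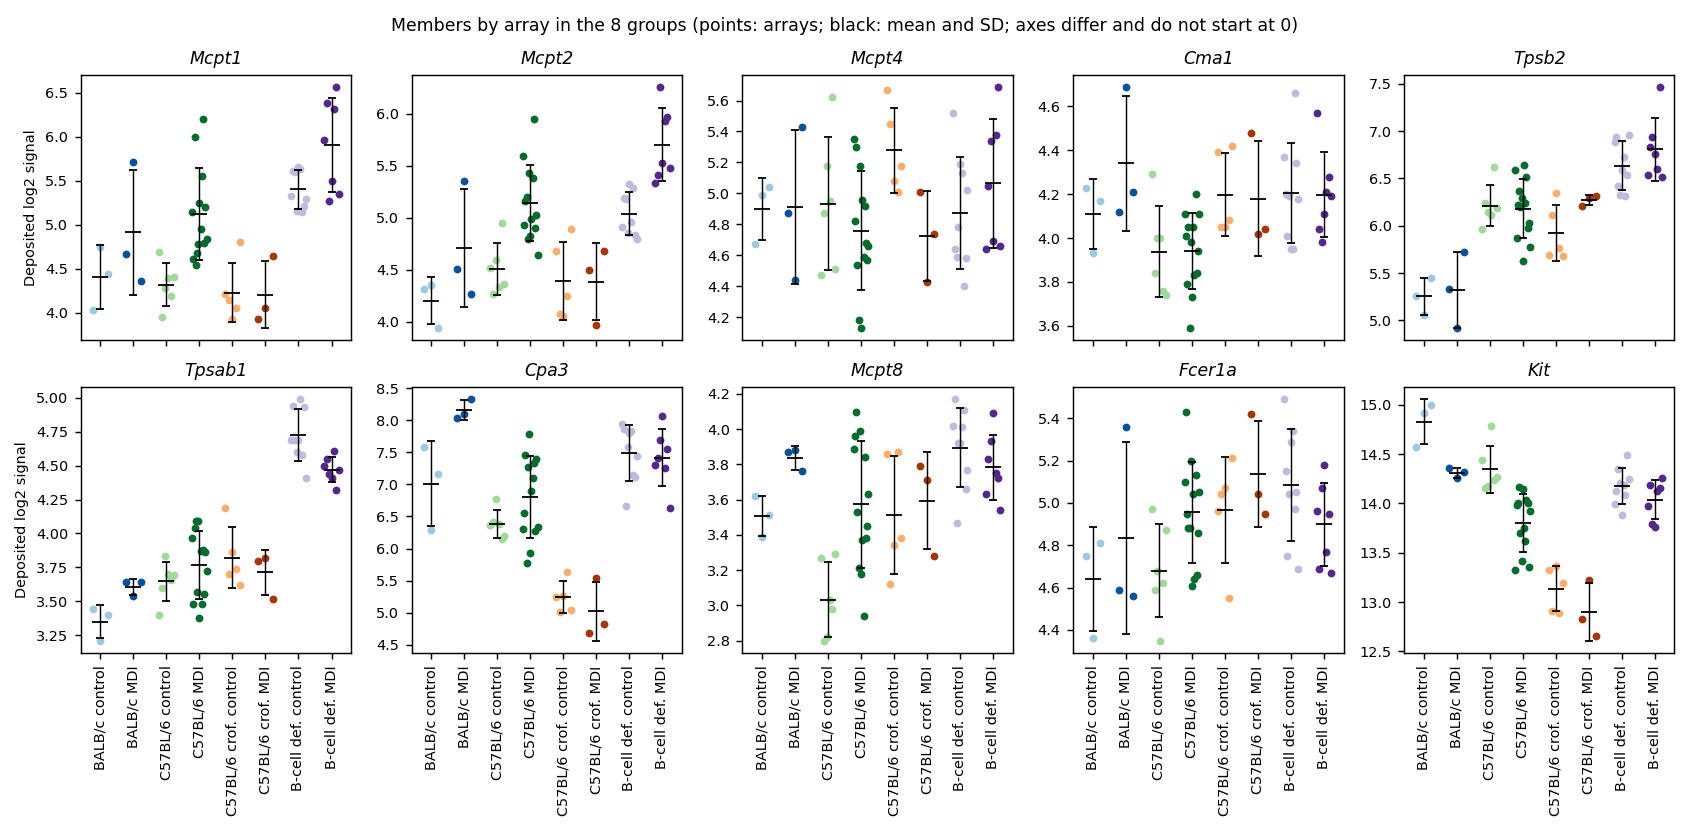
Deposited log2 signal of each of the 10 members (vertical axes, which differ and do not start at 0) on the 49 arrays with a group, 1 point per array, with the mean and SD of each group in black. Kit lay between 12.65 and 15.00 and was lowest in both crofelemer groups; Cpa3 spanned 4.69 to 8.33, and Mcpt8 stayed between 2.80 and 4.17.

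In C57BL/6 mice, MDI raised the mucosal mast cell proteases Mcpt1 and Mcpt2 and the basophil protease Mcpt8, and lowered Kit. The chymases and tryptases of connective tissue mast cells, Mcpt4, Cma1, Tpsb2 and Tpsab1, did not pass the test and differed by -0.17 to 0.12. With limma over all 22206 probe sets, 4 of the 10 members had an adjusted p under 0.05, 3 higher and 1 lower, where 14.5% of all probe sets were called (5.3% higher and 9.23% lower). The median difference of the 10 members was 0.20, against 0.01 for all probe sets.

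Mcpt1 ranged from 3.95 to 4.69 in the 6 control arrays (median 4.33) and from 4.54 to 6.20 in the 13 MDI arrays (median 4.95). Of the 13 MDI arrays 10 were above every control array and none was below them all, so the groups overlapped only at their edges. The difference was 0.80 ± 0.20 (SE), or 1.74-fold (limma, adjusted p = 0.00434). Mcpt2 ranged from 4.27 to 4.95 in controls (median 4.44) and from 4.64 to 5.95 with MDI (median 5.03), with 8 of 13 MDI arrays above every control, a difference of 0.64 ± 0.16 and 1.55-fold (adjusted p = 0.00412). Over all 49 arrays, after the mean of each set was taken off, Mcpt1 and Mcpt2 correlated at r = 0.671, the highest value of any pair of members; these arrays share treatment groups, and the value is a description. Mcpt4, of the same gene cluster, ranged from 4.47 to 5.62 in controls and from 4.13 to 5.35 with MDI. The r of Mcpt4 with Mcpt1 was 0.0728.

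Mcpt8 ranged from 2.80 to 3.29 in C57BL/6 controls (median 3.00) and from 2.94 to 4.10 with MDI (median 3.53). It was above every control in 10 of 13 MDI arrays, and rose by 0.54 ± 0.13 or 1.46-fold (adjusted p = 0.00261). The control arrays had it at a median percentile of 0.574, at the very bottom of the array. Both the direction and the size of the change thus rest on signals that may be background. Fcer1a, 4.35 to 4.97 in controls and 4.61 to 5.43 with MDI, differed by 0.28 ± 0.13 and did not pass the test (adjusted p = 0.14). In the same comparison 6 of 8 dendritic cell genes rose and none fell (median of the 8, 0.85), and the part of these cells in the Fcer1a value was not tested. Cpa3 differed by 0.42 ± 0.22 (adjusted p = 0.223), from 6.15 to 6.78 in controls to 5.78 to 7.79 with MDI, so that 7 MDI arrays were above and 2 below every control.

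Kit went the other way. It ranged from 14.16 to 14.79 in the 6 C57BL/6 controls (median 14.25) and from 13.32 to 14.17 with MDI (median 13.92). All but 1 of the 13 MDI arrays lay below every control array, and the difference was -0.54 ± 0.12 (adjusted p = 9.80e-04), 1.46-fold lower. Of 12 capillary endothelial genes, 8 also fell in this comparison and none rose (median -0.48), among them the vascular endothelial growth factor receptor Kdr, which is Kit's neighbour on the chromosome (-0.74 ± 0.14, adjusted p = 2.21e-04), and the adhesion molecule Pecam1 (-0.49 ± 0.10, adjusted p = 5.68e-04). The summed level of that list, as a mean over its 12 genes, was 14.40 to 14.82 in the controls and 13.70 to 14.49 with MDI; the part of these cells in the Kit value was not tested.

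All 4 calls held when any 1 of the 19 arrays was left out (highest adjusted p 0.0198), among them MDI array 14, whose source name gives the control products while its title and treatment give MDI-GSH. The GEO records of the samples form 3 runs of consecutive entries, and what these runs stand for is not stated. The calls also held within the first run, which had 4 control and 12 MDI arrays, at 0.81 for Mcpt1, 0.75 for Mcpt2, 0.59 for Mcpt8 and -0.60 for Kit, and with the run as a fixed term, at 0.82, 0.66, 0.55 and -0.55. With the replicate number as a block, over the 12 arrays whose numbers both groups shared, Mcpt1 was 0.64 (adjusted p = 0.0557) and Kit -0.58 (0.0597), and both lost the call.

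**Figure D2:**
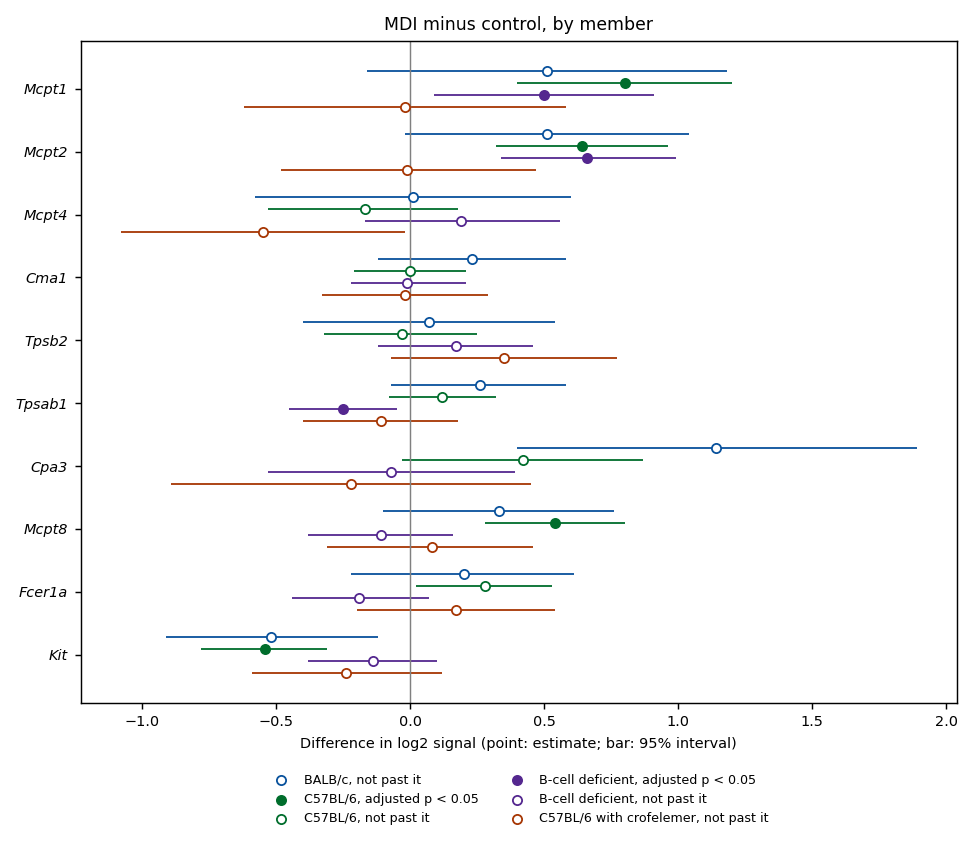
Difference in log2 signal, MDI minus control (horizontal axis), for each member in BALB/c, C57BL/6, B-cell deficient and crofelemer-treated C57BL/6 mice; points are limma estimates, bars 95% intervals, and filled points have an adjusted p under 0.05. Mcpt1 and Mcpt2 were filled on the right in C57BL/6 and B-cell deficient mice, Mcpt8 in C57BL/6 mice, and no point was filled in BALB/c or crofelemer-treated mice.

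The other genes of the pathway moved in part. With MDI in C57BL/6 mice 5.3% of all probe sets were called higher and 9.23% lower. Of 17 other mast cell genes, 2 rose and 1 fell (median -0.01). Those that rose were Cd63, a membrane protein of granules (0.89 ± 0.16, adjusted p = 9.65e-05), and Hpgds, the prostaglandin D2 synthase (0.74 ± 0.17, 0.00194), and the one that fell was the transcription factor Gata2 (-0.65 ± 0.19, 0.0139). These genes are also expressed outside mast cells, and on these arrays Cd63 and Gata2 were bright while most proteases were dim. Hdc, which makes histamine, differed by -0.17 (adjusted p = 0.657), and Slc18a2, which loads it into granules and was named after its values were seen, by 0.16 (0.576). Of 10 other basophil genes 3 rose and 1 fell. The cytokine Il4 rose by 1.20 ± 0.22 (limma, adjusted p = 1.25e-04), Csf2rb by 0.56 (0.0173) and Il6 by 0.62 (0.0497). Ifitm1 was the one that fell (-0.58, 0.00769). The basophil protease Prss34 (-0.06) and the receptor Cd200r3 (0.21) did not pass the test. Il4 is made by T helper cells and eosinophils too. Alongside, 3 of 5 T cell genes (median 0.53) and 4 of 6 eosinophil genes (median 1.27) rose and none fell, and the part of these cells was not tested.

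For the IgE receptor, the beta chain Ms4a2 differed by 0.17 (adjusted p = 0.618) and the shared gamma chain Fcer1g by -0.01 (0.98). Of the 19 genes of IgE receptor signalling 5 rose and none fell, led by the adaptors Lat (0.71 ± 0.15, adjusted p = 5.41e-04) and Lcp2 (0.77 ± 0.21, 0.00975), which T cells and myeloid cells also use. Among 17 genes of mast cell growth and homing 3 rose and 3 fell. Il33, the alarmin of damaged epithelium that activates mast cells, rose by 1.78 ± 0.25 (adjusted p = 1.48e-06), and the Kit ligand Kitl (-0.03), Il3 (0.00) and Il9 (0.41, adjusted p = 0.0922) did not pass.

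In BALB/c mice none of the 10 members passed the test with MDI, where 0.302% of all probe sets were called. At an unadjusted p under 0.05 there were 2, Cpa3 and Kit. Cpa3 had values of 6.29, 7.16 and 7.59 in the controls and 8.04, 8.10 and 8.33 with MDI. All 3 MDI arrays were above all controls, by 1.14 ± 0.37 or 2.21-fold, with an adjusted p of 0.294 (95% interval 0.40 to 1.89). Kit was 14.57, 14.92 and 15.00 in controls and 14.26, 14.32 and 14.36 with MDI, all below the controls, a difference of -0.52 ± 0.20 (adjusted p = 0.516). Mcpt8 (0.33) and Tpsab1 (0.26) also had groups that did not overlap, with all MDI arrays higher. Among all probe sets, 14.3% had groups that did not overlap in this comparison of 3 against 3.

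Mcpt1 and Mcpt2 differed by 0.51 each in BALB/c mice. For Mcpt1 the 95% interval ran from -0.16 to 1.18 and for Mcpt2 from -0.02 to 1.04, so rises as large as those in C57BL/6 mice lie inside them. The difference in MDI effect between the strains was tested for each member, and none of the 10 passed, where 0.027% of all probe sets were called; none had an unadjusted p under 0.05 either. The largest was Cpa3, whose effect was 0.72 ± 0.43 larger in BALB/c mice (95% interval -0.15 to 1.59, adjusted p = 0.733). For Kit it was 0.03 ± 0.23.

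In B-cell deficient mice, in which B cell development is blocked early, MDI also raised Mcpt2, and Mcpt8 and Kit did not pass the test. There were 3 called members, Mcpt1 and Mcpt2 higher and Tpsab1 lower, against 36.9% of all probe sets (16.2% higher and 20.7% lower). Mcpt2 ranged from 4.80 to 5.32 in the 9 controls (median 4.96) and from 5.33 to 6.26 in the 7 MDI arrays (median 5.53), without overlap, which 7.03% of all probe sets also showed. The difference was 0.66 ± 0.16, 1.59-fold (limma, adjusted p = 0.00123). It remained called in all 25 alternatives that tested it, at 0.57 to 0.83, and a filter on dim probe sets left Mcpt2 out untested.

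Mcpt1 ranged from 5.14 to 5.66 in controls (median 5.33) and from 5.27 to 6.57 with MDI (median 5.96), with 4 of 7 MDI arrays above every control. It rose by 0.50 ± 0.21 with an adjusted p of 0.049, next to the threshold. Leaving out control array 1, 4, 7, 8 or 9 or MDI array 1, 2, 5 or 6 ended this call, at 0.39 to 0.49 and adjusted p up to 0.145. Tpsab1 was 4.41 to 4.99 in controls and 4.32 to 4.61 with MDI, a fall of -0.25 ± 0.10 (adjusted p = 0.0419). That call was lost without control array 2, 5, 6 or 8 or MDI array 1, 3, 4, 6 or 7, at -0.26 to -0.22 and adjusted p up to 0.0909, and under quantile normalization within sets (-0.09, adjusted p = 0.476). Tpsab1 lay at a median percentile of 9.23 over the 49 arrays. The B-cell deficient controls all came from the second run of records, and the MDI arrays were split, 4 from the first run and 3 from the second. With the run as a fixed term, and within the second run alone, the difference was 0.76 for Mcpt2, 0.67 for Mcpt1 and -0.26 for Tpsab1. Of these Mcpt2 was called both times (adjusted p = 0.0112 and 0.00295), Mcpt1 only within the second run (0.0741 and 0.0292) and Tpsab1 in neither (0.171 and 0.208).

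In this set 4 control arrays, replicates 1, 2, 5 and 6, had a narrower spread of values than all other arrays with a group, with an SD over probe sets under 3. Without them, a choice made after seeing the data, Mcpt2 was 0.71 (adjusted p = 0.00821), while Mcpt1 (0.63, 0.0704) and Tpsab1 (-0.17, 0.332) were no longer called, so that 1 of 10 members remained.

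The MDI effect on Mcpt8, the dimmest member, differed between B-cell deficient and C57BL/6 mice by limma. In B-cell deficient mice Mcpt8 ranged from 3.47 to 4.17 in controls (median 3.92) and from 3.54 to 4.09 with MDI (median 3.75), a difference of -0.11 ± 0.13, against the rise of 0.54 in C57BL/6 mice. The difference of the 2 effects was -0.65 ± 0.18 (limma, adjusted p = 0.0107), and Mcpt8 was the only 1 of 10 members called, where 20.3% of all probe sets were (11% lower). It kept the call when any 1 of 35 arrays was left out (-0.71 to -0.61), and lost it without the 4 narrow control arrays (-0.54, adjusted p = 0.117). With the record run as a fixed term it was -0.78 (adjusted p = 0.021), and under quantile normalization within each set -0.49 (0.0477). The median percentile of Mcpt8 was 2.7 in B-cell deficient controls and 2.17 with MDI, and 0.574 and 5.09 in C57BL/6 mice. Both effects thus rest on signals that may be background. Fcer1a (-0.46, adjusted p = 0.0578), Tpsab1 (-0.37, 0.0501) and Kit (0.41, 0.0773) came close to the threshold, and each of Fcer1a and Tpsab1 passed it under some settings. Mcpt1 (-0.30 ± 0.29) and Mcpt2 (0.03 ± 0.23) did not pass, and for Mcpt2 the 95% interval was -0.43 to 0.49.

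The IgE receptor signalling genes rose in B-cell deficient mice. Of the 19 IgE receptor signalling genes 17 rose and none fell (median 1.11), where 16.2% of all probe sets were called higher. Of the 19, 12 rose more than in C57BL/6 mice, against 9.27% of all probe sets called higher in the test of the difference. The gene lists were not rerun with the record run as a term or without the narrow control arrays. The receptor's gamma chain Fcer1g rose by 1.31 ± 0.23 (adjusted p = 1.97e-05) and the phospholipase Plcg2 by 1.78 ± 0.17 (8.43e-12), whereas the beta chain Ms4a2 (-0.19, adjusted p = 0.455) and Fcer1a itself (-0.19, 0.254) did not pass. Fcer1g and Plcg2 are expressed across myeloid cells, and 6 of 6 eosinophil genes and 6 of 8 dendritic cell genes rose in the same comparison; their part was not tested. Il4 rose by 2.67 ± 0.23 (adjusted p = 5.00e-13), 1.46 more than in C57BL/6 mice (0.00141). The basophil protease Prss34 fell by 0.66 on the log2 scale (adjusted p = 4.31e-04), and its effect too was lower than in C57BL/6 mice (-0.60, 0.0326). Of 17 other mast cell genes 3 rose and 2 fell, the latter being the receptor Mrgprb1 (-0.55) and the amine oxidase Maob (-0.67). In the test of the difference from C57BL/6 mice, 1 of these 17 was called, lower, and none of the 8 dendritic cell genes was. Of the 12 capillary endothelial genes 8 fell with MDI and 1 rose (median -0.44), with a mean level of 14.39 to 14.71 in controls and 14.11 to 14.46 with MDI, while Kit differed by -0.14 (adjusted p = 0.382).

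Cpa3 and Kit were lower with crofelemer in C57BL/6 mice whether or not they had received MDI. Mcpt1 and Mcpt2 were lower with crofelemer in the MDI-exposed mice. In the MDI-exposed mice 4 of 10 members were called, all lower, where 32.6% of all probe sets were called (17.5% lower). In the control mice 3 of 10 were called, Cpa3 and Kit lower and Mcpt8 higher, where 39% of all probe sets were called (17.6% higher and 21.4% lower). Counted in both directions together, the called members lie near those shares. The 2 comparisons use different arrays. The crofelemer groups and the untreated C57BL/6 groups belong to sets whose arrays may have been normalised apart, so a difference of scale and one of the drug cannot be told apart. Centring each array on its median raised the median of all probe sets from 0.04 to 0.14 in MDI-exposed and from 0.03 to 0.19 in control mice, and Cpa3 and Kit stayed called. Centring takes off a constant shift of an array and no other difference in scale.

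Cpa3, the mast cell carboxypeptidase, had values of 4.69, 4.83 and 5.54 on the 3 arrays of crofelemer and MDI, and 5.78 to 7.79 (median 6.90) on the 13 of MDI alone. All 3 lay below all 13. The difference was -1.78 ± 0.29 (limma, adjusted p = 2.31e-06), 3.44-fold lower. In control mice Cpa3 was 5.01, 5.04, 5.25, 5.26 and 5.64 with crofelemer and 6.15 to 6.78 (median 6.37) without, again without overlap, a difference of -1.14 ± 0.28 (adjusted p = 7.14e-04), 2.21-fold lower. Both calls held when any 1 array was left out, at -2.04 to -1.62 and -1.24 to -1.06, and after centring, at -1.69 and -0.99. Groups without overlap were found for 13.9% of all probe sets in MDI-exposed mice and for 20.3% in controls.

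Kit was 12.65, 12.83 and 13.22 with crofelemer and MDI, below all 13 arrays of MDI alone (13.32 to 14.17), a difference of -0.90 ± 0.15 (adjusted p = 5.13e-06) or 1.87-fold lower. In control mice the 5 crofelemer arrays were 12.89, 12.91, 13.19, 13.32 and 13.37, all below the lowest untreated control of 14.16. The difference there was -1.21 ± 0.15 (adjusted p = 1.53e-09), 2.31-fold lower. The Kit ligand Kitl, made by stromal and endothelial cells, fell too, by 0.58 on the log2 scale in MDI-exposed mice (adjusted p = 0.0167) and by 0.52 in controls (0.0206).

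Endothelial genes fell with Kit. Of the 12 capillary endothelial genes 10 fell in MDI-exposed mice (median -0.85) and 12 fell in controls (median -1.16), none rising. Pecam1 fell by 1.08 and fell by 1.15, and the endothelin receptor Ednrb fell by 2.08 and fell by 2.40. Their mean level was 12.88 to 13.84 in the crofelemer arrays and 13.70 to 14.82 in untreated C57BL/6 arrays. Within sets, over 49 arrays with each set's mean taken off, Kit correlated most with Kdr (r = 0.68), Plvap (0.66) and Pecam1 (0.649) of the 12. The lowest of the 12 were Ednrb (0.351), Gpihbp1 (0.201) and Car4 (-0.169). With the 9 other members the r of Kit ran from -0.52 for Cpa3 and -0.518 for Mcpt2 to -0.04 for Mcpt4 and -0.0312 for Cma1. These arrays share treatment groups, and the values are descriptions. The crofelemer arrays are a set of their own, so these r values leave out the difference between crofelemer and untreated arrays. The part of endothelial cells in the fall of Kit was not tested.

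**Figure D3:**
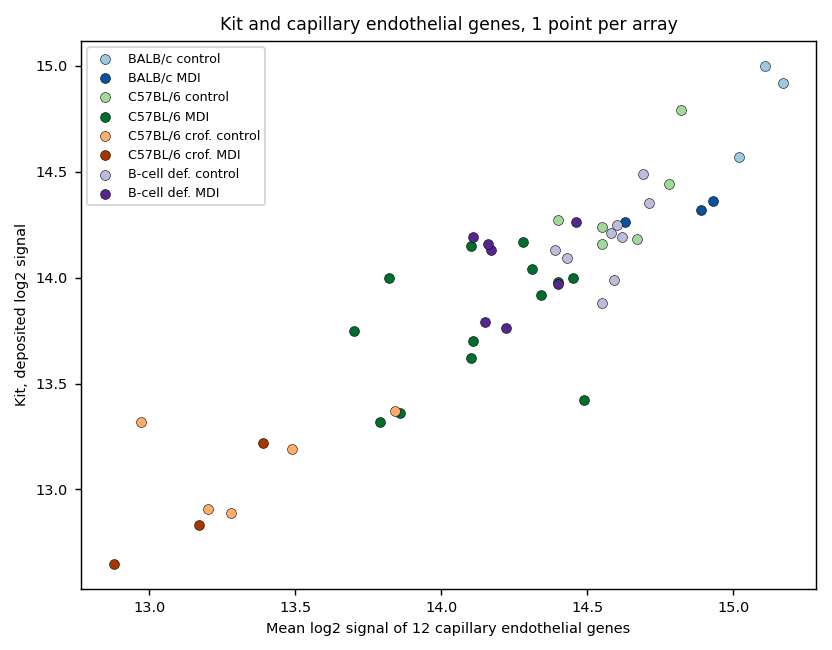
Kit (vertical axis, deposited log2 signal) against the mean log2 signal of 12 capillary endothelial genes (horizontal axis), 1 point per array, coloured by group. The crofelemer arrays lie at the lower left, with Kit from 12.65 to 13.37, and the BALB/c controls at the upper right, with Kit from 14.57 to 15.00.

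The mucosal proteases Mcpt1 and Mcpt2 were lower with crofelemer in MDI-exposed mice, in a comparison that shares its 13 arrays of MDI alone with the MDI comparison above. Mcpt1 was 3.93, 4.05 and 4.64 with crofelemer and MDI, with 2 of 3 arrays below all 13 of MDI alone (4.54 to 6.20). The difference was -0.91 ± 0.26, 1.88-fold lower (adjusted p = 0.00517), and it was not called without crofelemer MDI array 1 (-0.77, adjusted p = 0.066). Mcpt2 was 3.97, 4.50 and 4.68, with 2 of 3 arrays below all 13 (4.64 to 5.95), a difference of -0.76 ± 0.21, 1.69-fold lower (0.00335), which was not called without crofelemer MDI array 2 (-0.55, 0.0809). In control mice the differences were -0.09 ± 0.25 for Mcpt1 and -0.11 ± 0.20 for Mcpt2 (adjusted p = 0.804 and 0.682).

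Mcpt8 was higher with crofelemer in control mice, at 3.12, 3.34, 3.38, 3.86 and 3.87 against 2.80 to 3.29 without. Of the 5 arrays 4 were above all controls, and the difference was 0.48 ± 0.16 (adjusted p = 0.0128). It was not called without crofelemer control array 1 (0.40, adjusted p = 0.0596) or 4 (0.39, 0.0609). In MDI-exposed mice it was 0.02 ± 0.17. Mcpt4, Cma1, Tpsb2, Tpsab1 and Fcer1a passed the test in neither comparison, with differences from -0.29 to 0.34, although Cma1, Tpsab1 and Fcer1a were called higher in control mice after median centring, which raised that count of members to 6, with 4 higher and 2 lower.

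**Figure D4:**
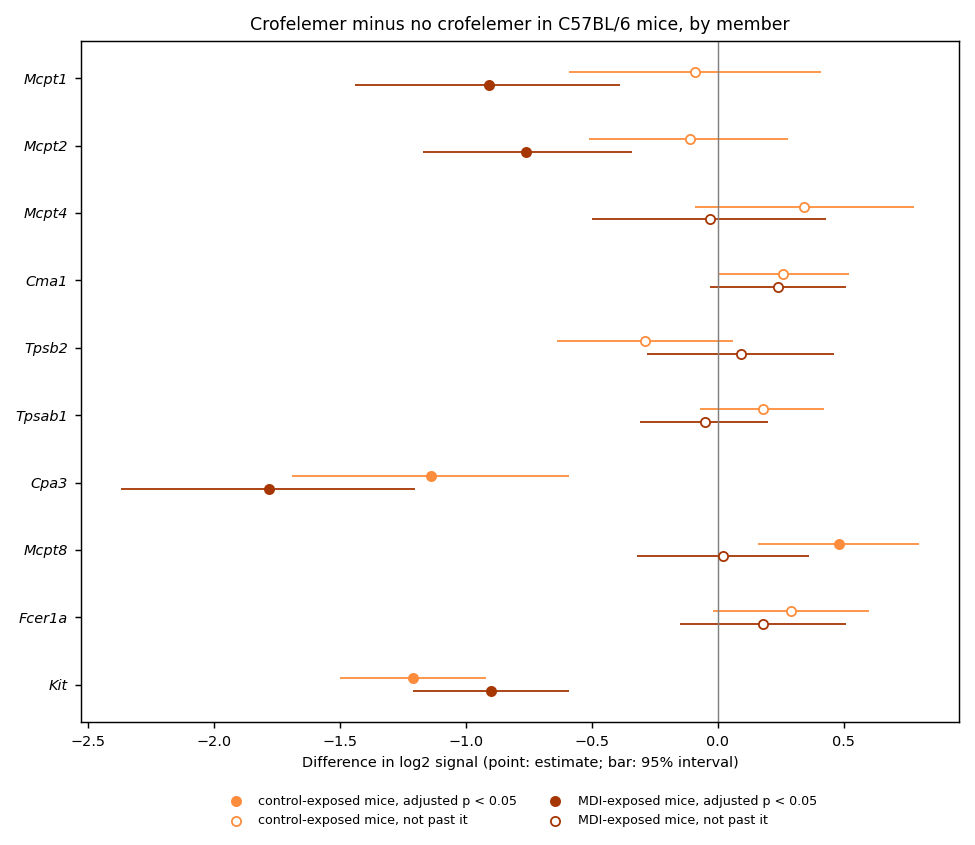
Difference in log2 signal, crofelemer minus no crofelemer (horizontal axis), for each member in C57BL/6 control-exposed and MDI-exposed mice; points are limma estimates, bars 95% intervals, and filled points have an adjusted p under 0.05. Cpa3 and Kit were filled on the left in both, at -1.14 and -1.21 in control-exposed and -1.78 and -0.90 in MDI-exposed mice.

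Within the crofelemer set, MDI against control gave no called member, where 0.054% of all probe sets were called by limma, and 1 of 10 had an unadjusted p under 0.05. That was Mcpt4, at 4.43, 4.74 and 5.01 with MDI and 5.01 to 5.67 in controls (-0.55 ± 0.26, adjusted p = 0.587). Mcpt1 differed by -0.02 ± 0.30 and Mcpt2 by -0.01 ± 0.24. Whether the MDI effect differed with and without crofelemer was tested directly, and none of the 10 passed (0.423% of all probe sets), with 2 at an unadjusted p under 0.05. Those were Mcpt1, whose effect was -0.82 ± 0.36 lower with crofelemer (95% interval -1.54 to -0.10, adjusted p = 0.329), and Mcpt2 (-0.64 ± 0.28, -1.21 to -0.07, 0.337). The MDI effects on both genes with and without crofelemer were thus not shown to differ.

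Other mast cell genes were called both ways with crofelemer. Of 17, 2 rose and 3 fell in each of MDI-exposed and control mice. Of all probe sets, 15% were called higher and 17.5% lower in MDI-exposed mice, and 17.6% and 21.4% in controls. The counts for these 17 genes lie near those shares. Srgn, the serglycin core protein that holds proteases in granules and is also abundant in other blood cells and endothelium, fell by 3.11 on the log2 scale in MDI-exposed mice (adjusted p = 4.28e-12) and fell by 2.92 in controls (3.25e-12). Gata2 fell by 1.15 (adjusted p = 1.62e-04) and fell by 1.62 (9.45e-08). Cd63 rose by 0.83 (0.00142) and by 1.52 (1.22e-08), and Hdc by 0.90 in MDI-exposed mice (0.00679). The IgE receptor's beta chain Ms4a2 fell by 0.63 in MDI-exposed mice (adjusted p = 0.0372), Fcer1g did not pass (0.65, 0.0845), and of the 19 signalling genes 6 fell there and 4 in controls, none rising. Of 10 basophil genes 3 fell and none rose in MDI-exposed mice, Il4 by 1.38 (1.40e-04). In control mice 2 of the 10 fell and 3 rose, the receptors Il3ra (0.52, adjusted p = 0.0138), Ptger3 (0.85, 0.00664) and Csf2rb (0.70, 0.00455), and Il4 did not pass (-0.48, 0.164). The same 2 comparisons lowered 5 of 5 B cell genes (medians -2.35 and -2.23), and 5 and 3 of 6 eosinophil genes, of which 1 rose in controls. They also lowered 3 and 2 of 5 T cell genes (medians -0.89 and -0.47), 4 and 1 of 8 dendritic cell genes (-0.63 and 0.07) and 1 and 4 of 6 neutrophil genes (-0.19 and -2.05), none rising. The part of these cells in the results was not tested.

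Across the 8 groups the members did not share 1 order of levels. These levels cross sets whose array means differ, and the part of scale in their order was not tested. Kit ran from 14.83 ± 0.23 (SD, n = 3) in BALB/c controls down to 13.80 ± 0.30 in C57BL/6 MDI (n = 13), then 13.14 ± 0.23 (n = 5) and 12.90 ± 0.29 (n = 3) in the crofelemer groups. Only the steps after the first group (0.48) and down to the crofelemer groups (0.67) were larger than the SD of the neighbours. Cpa3 was highest in BALB/c MDI, at 8.16 ± 0.15, then 7.49 ± 0.44 and 7.42 ± 0.44 in the B-cell deficient groups, and lowest with crofelemer, at 5.24 ± 0.25 and 5.02 ± 0.46. Its steps after the first group (0.67) and between C57BL/6 controls (6.38 ± 0.22) and the crofelemer groups (1.14) exceeded the neighbours' SD. For Mcpt1, from 5.91 ± 0.53 in B-cell deficient MDI to 4.21 ± 0.38 in crofelemer MDI, no step between neighbours did. Ranked within each array, the order of groups changed. The median percentile of Cpa3 was 61.2 in BALB/c MDI and 53.7 in BALB/c controls. It was 50.3 in B-cell deficient controls and 48.6 in B-cell deficient MDI. For Mcpt1 the median percentile was 32.8 in B-cell deficient MDI, 28.3 in C57BL/6 MDI and 21.6 in B-cell deficient controls.

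The genes most like each member over the 49 arrays, by Pearson r with each set's mean taken off, are given as a description. For Kit they were Glp1r (0.827), Pdgfrb (0.804) and Spns2 (0.792), all bright, and for Mcpt1 Cnr2 (0.75), Pik3r5 (0.67) and Lag3 (0.652). Mcpt2 was most like Slc26a4 (0.694), Clta (0.694) and Chia1 (0.687), and Cpa3 like Sec1 (0.626), Reg3g (0.582) and Gal3st2c (0.579). Mcpt8 was most like Tcp10b (0.713), Olfr545 (0.697) and Fcna (0.693), and Fcer1a like Smim23 (0.71), Slc25a54 (0.69) and Ins2 (0.663), all with medians below 7 on the log2 scale. Mcpt8 and Fcer1a correlated with each other at 0.569, and Mcpt8 with Cpa3 at 0.473. The lowest values at the head of a list were those of Tpsb2, whose most like gene was Gm5127 (0.536); Mcpt4 was most like Rfx4 (0.685), Cma1 like Isl1 (0.664) and Tpsab1 like Apoa1 (0.676). Among dim probe sets such values can come from signal that arrays share near the background, which was not tested.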

How the data were processed

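The authors deposited log2 signal values of 51 arrays with 22206 probe sets each, and the submitters' processing notes name Transcriptome Analysis Console. For its version, normalization and background correction nothing was given in the sources used here, and the log base was inferred from the values, whose largest was 20.91, so folds hold for the deposited scale. The values were used as deposited. Symbols came from the platform annotation, which names 19572 probe sets with 1 symbol. The other 2634 had no symbol or several and stood for no named gene. Every member had 1 probe set that carried its symbol alone.

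One limma model (limma 3.58.1, R 4.3.3) with 8 group means over 49 arrays (41 residual degrees of freedom, empirical Bayes with intensity trend) gave 9 comparisons, each adjusted by Benjamini-Hochberg over all probe sets and called at an adjusted p under 0.05. The model was also run on simulated data with independent noise. The changes planted there were larger than most called member differences, so that run does not bear on the smaller ones. The members and gene lists were chosen with earlier results of these data known. Named genes are the members, up to 4 called genes with the smallest adjusted p per list and comparison, Ms4a2, Fcer1g, Kitl, Prss34, Cd200r3, Hdc, Il3, Il4, Il9 and Il33, and the 3 genes most like each member. Some of the lists' genes, among them Mcpt10, Il1rl1, Adora3, Lyn, Siglec5, Trbc2 and Foxj1, were not analysed here. Of 5 lung tissue genes, which mark the labelled organ, the mean level was 17.65 to 18.41 on all arrays with a group. Same-numbered arrays did not deviate together (correlations -0.26 to 0.18), so numbers were not taken to pair arrays. Plots used matplotlib 3.10.9 (Python 3.11.15).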

Additional observations from a re-analysis of the deposited data

Results flagged for a closer look

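The MDI effect on the basophil protease Mcpt8 differed between B-cell deficient and C57BL/6 mice by -0.65 on the log2 scale in the test of the difference itself, from a rise of 0.54 in C57BL/6 to -0.11 in B-cell deficient mice. The call was lost without the narrow control arrays (-0.54, limma adjusted p = 0.117). Mcpt8 was the dimmest member, and 20.3% of all probe sets were called in this test. No member had an array far from the others of its group by Dixon's test in the groups of 4 to 10 arrays.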

How the results depend on the processing

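The alternatives were median centring, quantile normalization within sets, no intensity trend, array weights, the compared arrays alone, a filter on dim probe sets, each array left out in turn, the record run as a fixed term or alone, a replicate block, and the narrow control arrays left out, the last chosen after seeing the data. No member's called difference changed direction. Median centring gave 6 called members for crofelemer in controls and 3 for the difference between B-cell deficient and C57BL/6 effects, which the compared arrays alone put at 2. The filter kept probe sets with a mean of at least 7.09, which of the members only Kit reached (13.94), so it left 1 called member for MDI in C57BL/6 mice, 0 in B-cell deficient mice, 1 for crofelemer in MDI-exposed and 1 in control mice, and 0 for the difference between B-cell deficient and C57BL/6 effects. With the record run as a fixed term 1 member was called in B-cell deficient mice. Without the narrow arrays it was 1, and 0 for that difference.

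With each array left out in turn, the called members numbered 4 in C57BL/6 and 1 to 3 in B-cell deficient mice for MDI, 3 to 4 and 2 to 4 for crofelemer in MDI-exposed and control mice, 1 to 3 for the difference between B-cell deficient and C57BL/6 effects, and 0 for the others. For MDI in B-cell deficient mice 1 remained without MDI array 1 or 6 or control array 8. Tpsab1, Fcer1a or both joined Mcpt8 in that difference without C57BL/6 control array 1, 3 or 6, C57BL/6 MDI array 2, 5, 7, 9 or 11, B-cell deficient control array 3, 4, 7 or 9, or B-cell deficient MDI array 4 or 5. With the replicate number as a block, 2 members were called for MDI in C57BL/6 mice (Mcpt2 and Mcpt8) and 3 for the difference between B-cell deficient and C57BL/6 effects; Tpsab1 in B-cell deficient mice also lost its call (-0.27, limma adjusted p = 0.0582), and under this block no other called member did. Tpsab1 there was not called either under quantile normalization (-0.09, limma adjusted p = 0.476) or array weights (-0.21, 0.0566), nor Mcpt1 there under median centring (0.45, 0.077) or without the intensity trend (0.50, 0.0508); under these 4 settings the other called members kept their calls.

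Centring moved the share of higher calls among all probe sets from 36.5% to 49.4% for MDI in C57BL/6 mice, from 46.1% to 59.4% and from 45.2% to 64.8% for crofelemer in MDI-exposed and control mice, from 45.7% to 28.5% for the B-cell deficient difference and from 42.6% to 25.7% for the crofelemer difference. The alternative of a member's dimmest probe set was not run, since each has 1. The first run alone could not be fitted for B-cell deficient mice, whose controls are all in the second. Signal over background limits the 9 dim members, and the number of arrays, 3 in 3 of the groups, limits the precision.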

Other observations

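The 2 arrays whose labels contradict each other carried Kit at 12.77 and 13.82, Cpa3 at 5.90 and 6.73, Mcpt8 at 3.97 and 2.99, Mcpt1 at 4.47 and 4.28 and Mcpt2 at 4.41 and 4.69 on the log2 scale. Their other 5 members lay between 3.70 and 6.26.

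Of the 11 gene lists, that of neutrophils had the widest range of list means within a C57BL/6 group: the mean of 6 such genes ran from 10.07 to 13.09 in C57BL/6 controls and from 8.72 to 12.81 with MDI. Of the 6, 2 fell and 1 rose with MDI in C57BL/6 mice by limma, and 1 rose in B-cell deficient mice. Among all probe sets, 9.23% were called lower and 5.3% higher in C57BL/6 mice. In B-cell deficient mice 16.2% were called higher and 20.7% lower.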
